A study of Mus musculus with 4 samples.

Results

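The genes that write, erase and read DNA methylation were examined in gonadal white adipose tissue (gWAT) of female mice fed high-fat diet (HFD). The 9 genes, Dnmt1, Dnmt3a, Dnmt3b, Uhrf1, Tet1, Tet2, Tet3, Tdg and Mbd2, were taken by exact gene symbol from a table of 17335 genes, and all 9 were found. The fl/fl mice carried Dnmt1 alleles with loxP sites around exons 4 and 5. The AD1KO mice were their littermates with the same floxed alleles plus Cre recombinase driven by the adiponectin promoter, which deletes Dnmt1 in adipocytes and leaves it intact in the other cells of the fat pad. Both groups had been on HFD for 18 weeks. Age was not given for these animals in the sources used here. Each genotype is represented by 1 library, made from the combined RNA of 4 mice in equal parts, and no difference reported here has a replicate check.

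DNA methylation is the addition of a methyl group to cytosine, mainly where a cytosine is followed by a guanine (CpG). DNMT3A and DNMT3B place new marks, and DNMT1, guided by UHRF1 to newly copied DNA, renews the marks after each round of replication. TET enzymes oxidize the methyl group, TDG cuts out the oxidized base so that repair can restore plain cytosine, and proteins such as MBD2 bind methylated CpGs and bring in repressor complexes. In adipose tissue these genes are active in adipocytes and also in the immune, vascular and stromal cells that lie between them.

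Expression values were read as FPKM, that is, fragments counted per gene and corrected for both transcript length and sequencing depth. From the steps between low FPKM values the fl/fl library held about 17670000 reads and the AD1KO library about 17490000, which allows the reads behind each gene to be estimated. Ranges in brackets after a log2 ratio are exact 95% Clopper-Pearson intervals on those reads. Ranges given in FPKM are exact 95% Poisson intervals on the reads of a single library. Both kinds cover counting error only and say nothing of the spread between animals. The log2 ratio is always AD1KO over fl/fl after 0.01 FPKM was added to each, so that a negative ratio means a lower level in AD1KO. A gene was compared where either library reached 0.1 FPKM, and "lower" or "higher" below means past 0.5 on the log2 scale. Of 15839 genes that reached the minimum, 19.1% were lower and 14.3% higher, and the median log2 ratio was -0.04.

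The 2 exons that Cre removes are shown because the knockout is defined by them, and because they limit how well a value for the whole gene can report the deletion. They lie on the minus strand of chromosome 9 in the mm9 genome (NCBIM37), exon 4 at chr9:20745817-20746027 and exon 5 at chr9:20744920-20744998, both within the coding part of the transcript. Capitals mark CpG dinucleotides, of which exon 4 holds 7 and exon 5 holds 4.
Dnmt1 exon 4: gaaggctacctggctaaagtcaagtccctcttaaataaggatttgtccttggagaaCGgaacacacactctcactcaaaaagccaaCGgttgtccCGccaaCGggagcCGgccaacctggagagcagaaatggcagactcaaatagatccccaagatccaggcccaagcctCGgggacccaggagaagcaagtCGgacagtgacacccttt
Dnmt1 exon 5: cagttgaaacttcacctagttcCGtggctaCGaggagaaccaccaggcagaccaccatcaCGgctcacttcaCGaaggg

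Exon 4 has 211 bases and exon 5 has 79, so their loss removes 290 bases. This leaves a remainder of 2 when divided by 3, which shifts the reading frame of all exons that follow. The exons make up 5.47% of the transcript length used for the FPKM, and losing the reads of these bases alone, in every cell, would give a log2 ratio of -0.08. The FPKM of Dnmt1 is therefore read mostly from the parts of the transcript that lie outside the deletion.

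Dnmt1, the maintenance methyltransferase and the gene targeted in AD1KO mice, was at 6.99 FPKM in fl/fl and 3.33 FPKM in AD1KO. Its log2 ratio was -1.07 (-1.27 to -0.87), from about 640 and 302 reads. The library labelled AD1KO thus held 47.6% of the Dnmt1 level of the library labelled fl/fl, and 8.07% of compared genes had a more negative ratio. Dnmt1 (gene 13433) spans chr9:20711650-20757317 of mm9 on the minus strand. The table gives 1 value for the whole gene, so reads from exons 4 and 5 were not seen separately.

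Uhrf1, which recognizes hemimethylated DNA and recruits DNMT1 to it, was lower as well. In the grouping by role used here, Uhrf1 is counted with the writers as the guide of DNMT1, not as a methyltransferase. Its level (gene 18140, chr17:56442744-56462909, plus strand) went from 5.0 FPKM in fl/fl to 2.47 FPKM in AD1KO, a log2 ratio of -1.01 (-1.31 to -0.73). About 301 fl/fl reads and 147 AD1KO reads stood behind it. The ratio of Dnmt1 to Uhrf1 within a library was close to the same in both, 1.4 in fl/fl and 1.35 in AD1KO.

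Dnmt3a, the main de novo methyltransferase of this tissue by level, had the second highest FPKM of the 9 genes in fl/fl. It was at 9.02 FPKM in fl/fl and 4.88 FPKM in AD1KO (gene 13435, chr12:3806007-3914443, plus strand). Its log2 ratio of -0.88 (-1.02 to -0.76) was the most precise among the writers, since about 1433 and 767 reads were counted. Dnmt3a is not floxed in these mice. Its span overlaps Gm10485 on the opposite strand by 2952 bases, and reads of the 2 genes there cannot be told apart without the strand setting.

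Dnmt3b, the other de novo enzyme, was hardly expressed and was the one writer without a lower level. It was at 0.35 FPKM in fl/fl and 0.36 FPKM in AD1KO, about 25 reads in each library (gene 13436, chr2:153475186-153513466, plus strand). Its log2 ratio was 0.04 (-0.84 to 0.87), so a change the size of that of Dnmt1 in the lower direction was outside the counting interval, while smaller changes in either direction were not detectable at this depth. Dnmt1 and Dnmt3b differed by -1.11 in their log2 ratios, with an interval from -2.5 to 0.34 at the stricter level used for pairs of genes. The span of Dnmt3b overlaps 7530422B04Rik on the opposite strand by 837 bases. As the strand setting of the counting was not given, some of the few Dnmt3b reads could come from that gene, which was not tested.

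**Figure D1:**
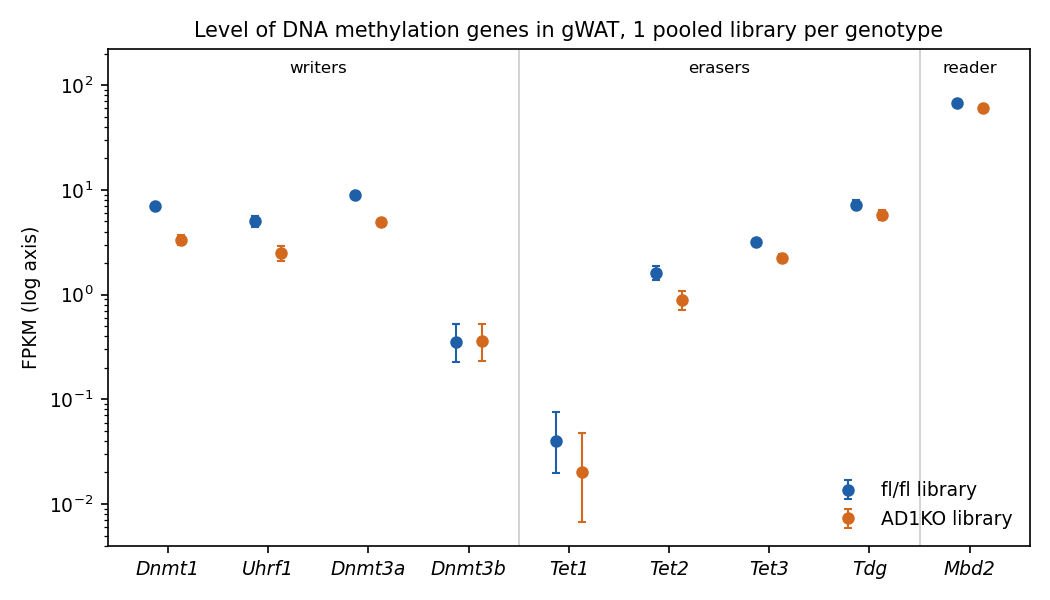
FPKM of each DNA methylation gene (log axis) in the fl/fl and the AD1KO library, by role, with bars for the 95% counting interval of a single pooled library. The AD1KO point lies below the fl/fl point for every gene except Dnmt3b, and the levels span from 0.02 FPKM for Tet1 to 67.91 FPKM for Mbd2.

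The erasers differed from each other in level more than the writers did. Tet3 was the most abundant of the dioxygenases that oxidize 5-methylcytosine, at 3.16 FPKM in fl/fl and 2.23 FPKM in AD1KO (gene 194388, chr6:83312367-83391672, minus strand). Its log2 ratio was -0.50 (-0.69 to -0.32), from about 604 and 422 reads. This ratio sits on the threshold itself. It was -0.46 once the libraries were scaled by trimmed mean of M-values, -0.41 with upper-quartile scaling and -0.46 with median-of-ratios scaling, so the place of Tet3 among the lower genes depends on the scaling.

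Tet2, the family member best known for its loss in blood cell cancers, was at 1.61 FPKM in fl/fl and 0.89 FPKM in AD1KO (gene 214133, chr3:133126643-133207354, minus strand). The log2 ratio was -0.85 (-1.24 to -0.48), from about 170 and 93 reads. Tet2 was thus at 55.3% of its fl/fl level, close to the 54.1% of Dnmt3a, but with fewer reads and a wider interval.

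Tet1, the family member known from pluripotent cells, was near the limit of detection in both libraries. It was at 0.04 FPKM in fl/fl and 0.02 FPKM in AD1KO, about 10 and 5 reads (gene 52463, chr10:62267318-62361866, minus strand). Rounding of the deposited value to 0.01 FPKM can move the fl/fl estimate by about 1.23 reads in either direction for so long a transcript. Tet1 did not reach the minimum and was not compared. Its log2 ratio of -0.74 has an interval from -2.88 to 0.70.

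Tdg, the glycosylase that removes oxidized methylcytosines and mismatched thymine, was at 7.19 FPKM in fl/fl and 5.76 FPKM in AD1KO (gene 21665, chr10:82092573-82113544, plus strand). With about 424 and 336 reads its log2 ratio was -0.32 (-0.53 to -0.11), below 0 by more than counting error but short of the threshold. The last 367 bases of Tdg overlap Glt8d2 on the opposite strand, which was at 2.40 FPKM in fl/fl and 4.05 FPKM in AD1KO. The strand setting of the counting was not given in the sources used here, so reads of this overlap cannot be told apart.

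Mbd2, a methyl-CpG binding subunit of the NuRD repressor complex, was by far the most abundant of the 9 genes. It was at 67.91 FPKM in fl/fl and 61.06 FPKM in AD1KO (gene 17191, plus strand of chromosome 18, from base 70727843 to base 70785785). The log2 ratio was -0.15 (-0.24 to -0.06), from about 2099 and 1868 reads. Mbd2 was the least changed of the 7 genes with a negative ratio that reached the minimum, and 40.0% of all compared genes had a more negative ratio.

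**Figure D2:**
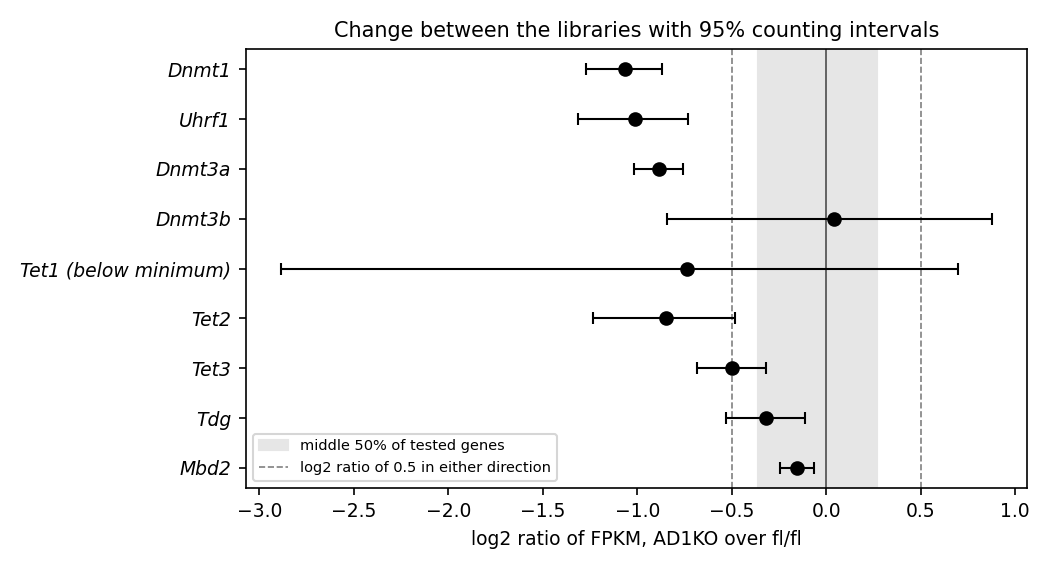
Log2 ratio of AD1KO over fl/fl for each gene with its 95% counting interval, beside the middle 50% of compared genes (grey band, -0.36 to 0.27) and lines at a log2 ratio of 0.5 in either direction. The intervals of Dnmt1, Uhrf1 and Dnmt3a lie wholly below -0.5, while those of Dnmt3b and Tet1 hold 0.

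Of the 9 genes, 8 reached the minimum. Among these, 5 were lower (Dnmt1, Uhrf1, Dnmt3a, Tet2 and Tet3), 0 were higher and 3 were neither (Dnmt3b, Tdg and Mbd2), beside 19.1% and 14.3% of all compared genes. Their median log2 ratio was -0.67 (-0.42 with a pseudocount of 1 FPKM) against -0.04 over all compared genes, where 53.8% had a ratio below 0. The counting interval lay wholly below 0 for 7 of the 8. It lay wholly below -0.5 for 3, beside 8.31% of all compared genes. With each of the 3 other scalings, or with a pseudocount of 0.1 FPKM, 4 of the 8 were lower. Dnmt1, counted in these numbers, is the gene targeted in AD1KO, so its lower level is not independent of the design. Genes are not replicates, and the same pools of animals stand behind each of these values.

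**Figure D3:**
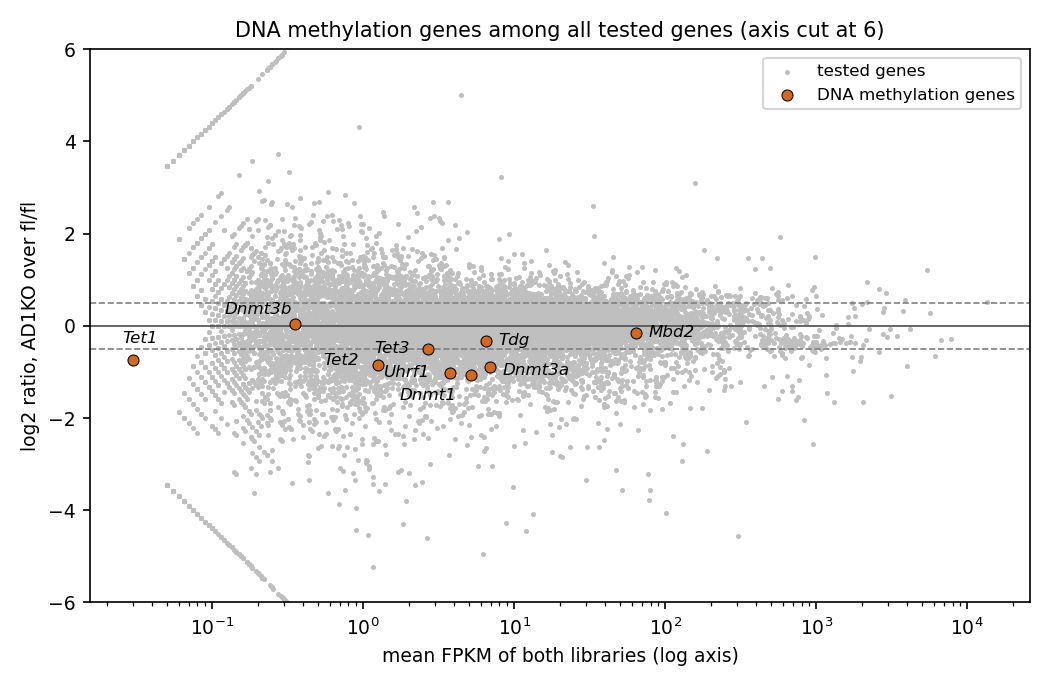
Log2 ratio of AD1KO over fl/fl against the mean FPKM of both libraries (log axis) for all compared genes (grey) with the DNA methylation genes marked. 58 genes lie outside the axis limit of 6, and Dnmt1, Uhrf1, Dnmt3a and Tet2 lie below the line at -0.5 among genes of similar level, while Mbd2 lies near 0.

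Whether the 9 genes differed from each other in their change was asked by comparing the ratio of each pair within a library, which does not depend on how the libraries are scaled. For 36 pairs the intervals were set at 99.86% each, so that together they hold at the 95% level. In 10 pairs the interval did not include 0. Dnmt1, Uhrf1, Dnmt3a, Tet2 or Tet3 had the more negative ratio in each of them, and Mbd2, Tdg or Tet3 the less negative one.

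Against Mbd2, the log2 ratio of Dnmt1 was lower by 0.91 (difference -0.91, interval -1.28 to -0.56), and that of Dnmt3a differed by -0.73 (-0.99 to -0.48). The difference from Mbd2 was -0.86 (-1.37 to -0.38) for Uhrf1, -0.69 (-1.34 to -0.09) for Tet2 and -0.35 (-0.68 to -0.02) for Tet3. Every lower gene thus differed from Mbd2 by more than counting error. Against Tdg, the differences were -0.75 (-1.22 to -0.28) for Dnmt1, -0.70 (-1.29 to -0.12) for Uhrf1 and -0.57 (-0.97 to -0.16) for Dnmt3a. Dnmt1 and Dnmt3a also differed from Tet3, by -0.57 (-1.01 to -0.13) and -0.38 (-0.75 to -0.02).

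Among Dnmt1, Uhrf1, Dnmt3a and Tet2, 0 of 6 pairs differed. The targeted gene and the de novo enzyme that was left intact had a difference of -0.18, with an interval from -0.57 to 0.20. Dnmt1 and Uhrf1 differed by -0.05 (-0.62 to 0.53), and Dnmt1 and Tet2 by -0.22 (-0.90 to 0.49). These intervals leave room for differences of up to about 0.9 on the log2 scale, so they do not show that the 4 genes changed alike.

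The order of the levels was nearly the same in both libraries. In fl/fl it ran Mbd2, Dnmt3a, Tdg, Dnmt1, Uhrf1, Tet3, Tet2, Dnmt3b and Tet1. In AD1KO, Tdg stood above Dnmt3a and no other gene moved. The fl/fl levels of Tdg (6.52 to 7.91 FPKM) and Dnmt1 (6.46 to 7.55 FPKM) overlapped within counting error, whereas in AD1KO Tdg (5.16 to 6.41 FPKM) stood clear of Dnmt1 (2.97 to 3.73 FPKM). In AD1KO the intervals of Tdg and of Dnmt3a (4.54 to 5.23 FPKM) overlapped.

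Summed over the family, the 3 DNA methyltransferases went from 16.36 FPKM in fl/fl to 8.57 FPKM in AD1KO. On their summed reads this was a log2 ratio of -0.92 (-1.03 to -0.82). The 3 Tet genes went from 4.81 to 3.14 FPKM, with a log2 ratio of summed reads of -0.58 (-0.74 to -0.42). As sums, the methyltransferases were lower by more than the Tet genes, with a difference of -0.35 (-0.54 to -0.15), and the ratio of their summed FPKM was 3.40 in fl/fl and 2.73 in AD1KO. Tet3 gave about 604 of the 783 Tet reads in fl/fl, and the difference did not hold for each gene. Dnmt3a and Tet2 differed by -0.04 (-0.67 to 0.62), and Dnmt3b had a ratio of 0.04.

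Within the methyltransferases the shares of the summed FPKM moved little. Dnmt1 made up 42.7% in fl/fl and 38.9% in AD1KO, Dnmt3a 55.1% and 56.9%, and Dnmt3b 2.14% and 4.20%. Within the Tet genes, Tet3 made up 65.7% in fl/fl and 71.0% in AD1KO, while Tet2 went from 33.5% to 28.3%. Tet1 stayed under 1% of the family in both libraries, at 0.83% and 0.64%.

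The wider machinery of DNA methylation was described with 73 further genes in 7 groups by role, all of which reached the minimum. Of these, 12 were lower and 2 higher, which is 16.4% and 2.74% beside the 19.1% and 14.3% of all compared genes. Their median log2 ratio was -0.13. The share of lower genes in the wider machinery was thus close to the background, and it was uneven between the groups. The other scalings raise every ratio by 0.04 to 0.09, which takes Uhrf2 and Setdb1, described next, short of the threshold, and upper-quartile scaling, the largest of these shifts, does so for Chd3 as well. The lower genes of the wider machinery then number 10, or 9 with the upper quartile.

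Partners of maintenance methylation, which act with DNMT1 at the replication fork, were lower in 5 of 8 cases with a median of -0.60. Cdca7 and Hells, which form a chromatin remodeler that opens nucleosomes for methylation, went from 2.09 to 0.81 FPKM (log2 ratio -1.36, interval -2.0 to -0.76) and from 1.41 to 0.62 FPKM (-1.17, -1.82 to -0.56). Pcna, the sliding clamp of DNA polymerase, went from 148.62 to 79.13 FPKM (-0.91, -1.0 to -0.82). The replication ligase Lig1 had a log2 ratio of -0.69 (-0.94 to -0.45), and Uhrf2, a relative of Uhrf1, one of -0.51 (-0.68 to -0.33). The other members, Usp7, Cdca7l and Dmap1, had ratios of -0.19, -0.04 and 0.06.

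Partners of de novo methylation were near the median of all genes, with 1 of 8 lower and a group median of -0.22. The lower gene was Setdb1, a histone H3 lysine 9 methyltransferase, at 11.34 FPKM in fl/fl and 7.97 FPKM in AD1KO (-0.51, -0.68 to -0.33). Dnmt3l, the catalytically inactive partner of the de novo enzymes, had the highest ratio of the group at 0.29, with an interval from -0.22 to 0.79.

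Genes that supply or regulate the Tet enzymes had a median above 0, at 0.15, with 1 of 8 lower and 0 higher. Idh3a, a subunit of the mitochondrial enzyme that makes 2-oxoglutarate, went from 98.64 to 130.78 FPKM (0.41, 0.35 to 0.47). The lower gene, Cxxc4, a CXXC-domain protein related to the Tet genes, was at 0.22 and 0.11 FPKM with an interval from -2.12 to 0.20 that holds 0.

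Base excision repair and deaminase genes held 4 lower genes of 17, with a median of -0.39. Apobec3 and Apobec1, deaminases known for restricting retroviruses and for editing RNA, went from 31.57 to 12.01 FPKM (-1.39, -1.55 to -1.24) and from 109.87 to 48.79 FPKM (-1.17, -1.25 to -1.09). Mbd4, a methyl-CpG binding glycosylase that shares the mismatched thymine substrate with Tdg, went from 1.58 to 1.02 FPKM (-0.63, -1.11 to -0.16). Gadd45a, a stress-response gene linked to active demethylation, had the highest ratio of the group at 0.30 (0.10 to 0.50). Its relatives Gadd45b and Gadd45g had ratios below 0, at -0.42 (-0.60 to -0.24) and -0.19 (-0.39 to -0.0002).

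Other methyl-CpG readers were near Mbd2 in their change. In this group 0 of 8 genes passed the threshold in either direction, and the ratios ran from -0.24 to 0.17 with a median of -0.14. Mbd3, the NuRD subunit that takes the place of Mbd2, had a log2 ratio of 0.13 (0.03 to 0.24). Of the NuRD subunits 1 of 11 was lower, the remodeling ATPase Chd3, at 10.49 FPKM in fl/fl and 7.17 FPKM in AD1KO (-0.55, -0.67 to -0.43), and the median of the group was -0.16.

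The methyl donor cycle, which makes S-adenosylmethionine for all methyltransferases, was the one group with higher genes. Of its 13 genes, 0 were lower and 2 higher, with a median of 0.14. The share of higher genes, 15.4%, was near the 14.3% of all compared genes. Mat1a, the S-adenosylmethionine synthetase best known from liver, went from 0.84 to 1.74 FPKM (1.04, 0.56 to 1.57), and Bhmt, which remethylates homocysteine, from 1.69 to 2.58 FPKM (0.61, 0.12 to 1.11). Nnmt, an S-adenosylmethionine consuming enzyme abundant in fat, was at 199.86 and 268.16 FPKM (0.42, 0.36 to 0.49).

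**Figure D4:**
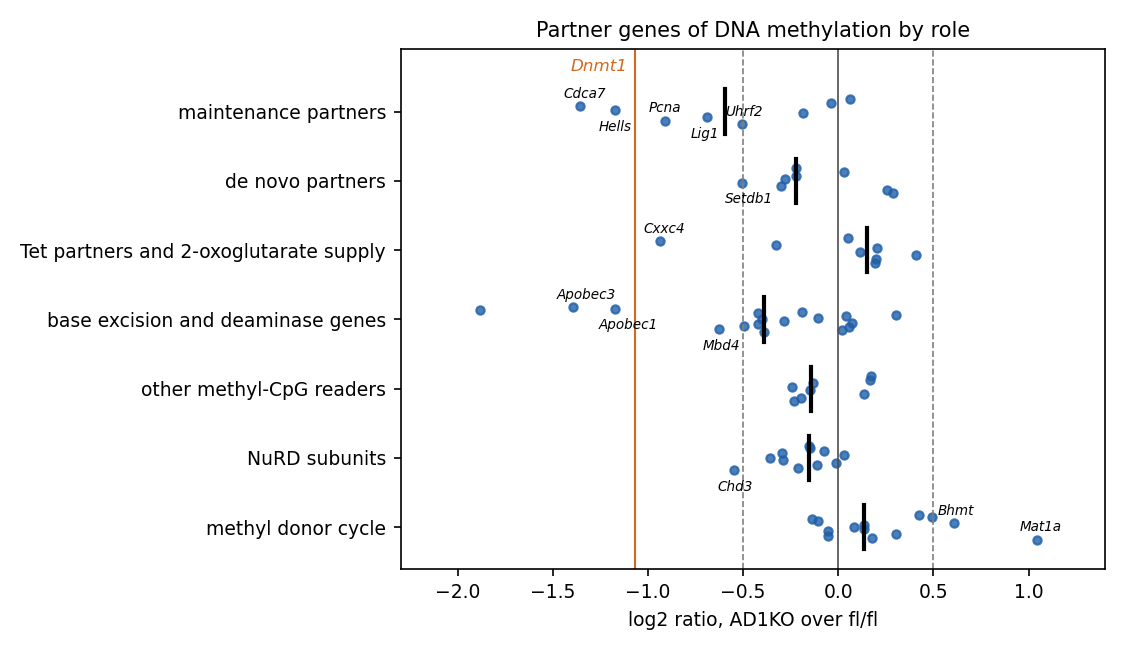
Log2 ratio of AD1KO over fl/fl for 73 genes of the wider DNA methylation machinery by role, with black bars for group medians, dashed lines at 0.5 in either direction and an orange line at Dnmt1. Maintenance partners have the lowest median, -0.60, and the methyl donor cycle holds the 2 genes above 0.5.

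Whole fat was sequenced, and in such samples fewer cells of a type and less RNA per cell cannot be told apart. Adipocyte genes were abundant in both libraries, as the tissue label says, with Adipoq, the adipocyte hormone gene whose promoter drives Cre, at 1911 FPKM in fl/fl and 3318 FPKM in AD1KO. Markers of other cells differed between the libraries together with the DNA methylation genes, and their part in the results above was not tested.

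Genes of proliferating cells were lower in 16 of 18 cases, with a median of -0.90 and a range from -1.37 to -0.12. Their summed level was 155.7 FPKM in fl/fl and 89.14 FPKM in AD1KO, which is 57.3%. Mki67, the usual marker of cycling cells, went from 4.02 to 1.94 FPKM (-1.05, -1.24 to -0.86), and the replicative helicase subunit Mcm5 from 9.31 to 3.81 FPKM (-1.29, -1.52 to -1.06). The transcription factor E2f1 was among the 2 that did not pass the threshold, at 9.58 and 8.81 FPKM. Dnmt1 and Uhrf1 lay -0.16 and -0.11 from the median of this list, Dnmt3a and Tet2 0.02 and 0.06 from it, and Tet3, Tdg and Mbd2 0.40, 0.58 and 0.75 above it.

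Macrophage genes were lower in 9 of 10 cases, with a median of -0.92 (range -1.32 to -0.48) and a summed level that went from 3886 to 1932 FPKM. Cd68 was at 701.61 FPKM in fl/fl and 325.84 FPKM in AD1KO, and Itgax, which marks macrophages of obese fat, at 51.43 and 20.53 FPKM. Dnmt1 and Uhrf1 lay -0.15 and -0.09 from the macrophage median, and Dnmt3a and Tet2 0.04 and 0.07 from it. These genes were thus about as near to this list as to that of proliferating cells. Tet3, Tdg and Mbd2 lay 0.42, 0.60 and 0.77 above it. T and NK cell genes were lower in 10 of 10 cases, with a median of -1.75 (range -2.81 to -1.5) and a summed level of 119.27 and 33.97 FPKM. None of the defining markers of these lists was at 0 in either library. B cell genes were lower in 5 of 8 cases, with a median of -0.68 (range -0.75 to -0.03) and a summed level of 97.93 and 65.07 FPKM.

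Adipocyte genes had ratios above 0, opposite in sign to Dnmt1, Uhrf1 and Dnmt3a. Of 10 adipocyte genes 8 were higher and 0 lower, with a median of 0.56 (range 0.37 to 1.5), and their summed level in AD1KO was 156% of that in fl/fl. Dnmt1 thus lay -1.63 from the adipocyte median on the log2 scale, Dnmt3a -1.44 and Mbd2 -0.71. Mesothelial genes, from the surface layer of the fat pad, were higher in 6 of 6 cases with a median of 0.79 and a summed level of 87.17 and 162.29 FPKM.

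Lists for the remaining cells were less uniform. Of 7 endothelial genes 1 was higher and 0 lower, with a median of 0.32 (range 0.10 to 0.50) and a summed level of 80.63 and 96.21 FPKM. Of 9 stromal progenitor genes 2 were lower and 1 higher, with a median of 0.04 (range -1.31 to 0.50) and a summed level of 1860 and 1797 FPKM. Of 6 neutrophil genes that reached the minimum 3 were lower and 3 higher, around a median of 0.01, with a summed level of 46.15 and 70.42 FPKM and Mpo listed at 0 in fl/fl. Brown fat genes were lower in 2 and higher in 2 of 8 cases, with a median of 0.10 and a summed level of 115.6 and 136.21 FPKM.

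Reproductive tract epithelial genes were listed because the gonadal fat pad of females lies against the oviduct and uterus. Of the 7 that reached the minimum 4 were lower and 0 higher, with a median of -1.42, also when Pax8 was set at its bound. These genes are low, and the median depended on the pseudocount, being -0.87 with 0.1 FPKM and -0.19 with 1 FPKM added. Pax8 was at 0.25 FPKM, about 11 reads, in fl/fl, and Foxa2 at 0.03 FPKM, and both are listed at 0 for AD1KO. The summed level of the list was 19.48 FPKM in fl/fl and 13.59 FPKM in AD1KO. Ovgp1, the oviduct glycoprotein gene, was at 3.51 FPKM in fl/fl and 0.17 FPKM in AD1KO, from about 149 and 7 reads. The list was not uniform, and 3 epithelial genes were neither lower nor higher. Krt8 was at 5.32 FPKM in fl/fl and 6.42 FPKM in AD1KO (0.27, -0.04 to 0.58). Krt18 was at 5.72 and 5.91 FPKM (0.05, -0.31 to 0.41), and Epcam at 0.78 and 0.62 FPKM (-0.33, -1.24 to 0.53).

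**Figure D5:**
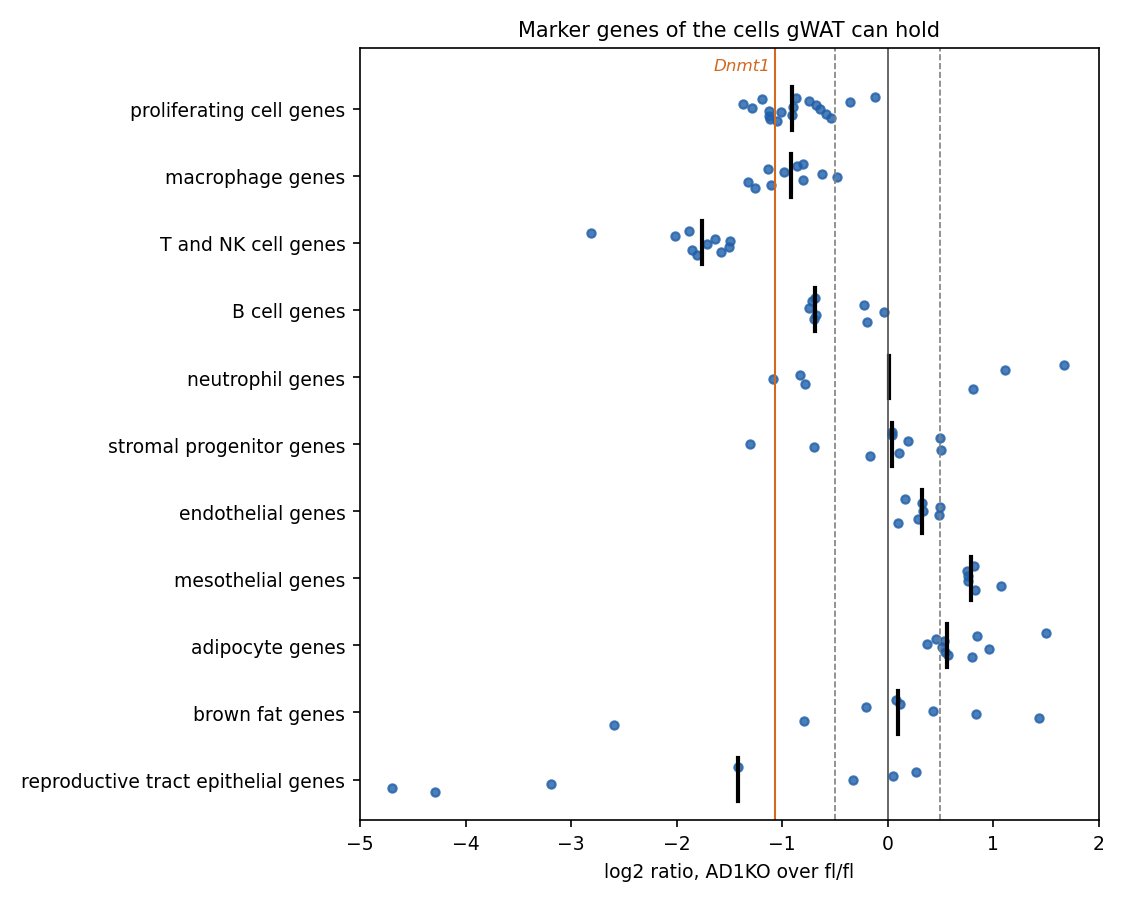
Log2 ratio of AD1KO over fl/fl for marker genes of the cells that gWAT can hold, with black bars for list medians, dashed lines at 0.5 in either direction and an orange line at Dnmt1. Medians of the proliferating and macrophage lists, -0.90 and -0.92, lie near Dnmt1, the T and NK cell median lies below it at -1.75, and the adipocyte median lies at 0.56.

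The genes most like Dnmt1 over the 2 libraries were sought among 1512 genes with an fl/fl level from 5.59 to 8.74 FPKM. The 5 with the nearest log2 ratio were Rasgef1b (-1.07), Tnfrsf11a (-1.08), F10 (-1.08), Pou2f2 (-1.08) and Ifit1 (-1.09). With 1 library per group a likeness of this kind describes a pair of values per gene.

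Dnmt1 and Uhrf1 are known targets of E2F factors, which switch on replication genes, and their promoter windows were searched for TTTCCCGC, TTTGGCGC, TTTCGCGC and TTTGCCGC on both strands. The search was made after the values were seen. In the 250 bases before each RefSeq start (GRCm38.p6), 2 of the 8 genes searched held a match (Mbd2 was left out), beside 2.16% of 27025 genes with a window. The matches, shown with their flanks and with the matching bases in capitals, begin 219 bases before the first start of Dnmt1 (chr9:20952824-20952853, minus strand) and 185 bases before the second start of Uhrf1 (chr17:56304117-56304146, plus strand).
Dnmt1 stretch: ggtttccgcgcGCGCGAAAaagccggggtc
Uhrf1 stretch: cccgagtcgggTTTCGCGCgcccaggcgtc

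The same letters were found for 2 of 8 maintenance partners and for 4 of 15 proliferating cell genes that had a window. The windows of the 8 DNA methylation genes searched, without Mbd2, held from 2 to 51 CpGs, against a median of 6 over all windows. Each sequence searched for holds a CpG, and the windows with the Dnmt1 and Uhrf1 matches held 26 and 30 CpGs. The share over all genes is thus no matched background, and enrichment was not tested. As Dnmt1 and Uhrf1 are known E2F targets, a match in them could be foreseen. A match of letters describes the sequence and says nothing of binding in this tissue.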

How the data were processed

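The deposited table holds 1 expression value per gene and library. The authors' service provider sequenced oligo(dT)-selected mRNA on a BGISEQ-500 and aligned reads to mm9. Neither the table nor the methods name the unit. The deposited values were taken as FPKM because low values step by whole reads once multiplied by transcript length. The lowest value, 0.01, was taken as 0. The aligner, the counting program and the strand setting are not given in the sources used here. The table also holds the authors' log2 fold change, P-value and FDR, which were not used. The 2 methylation profiles of the series, from fat of C57BL/6J mice on low or high fat diet, were not analysed here.

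Values of 0.01 were set back to 0. Groups came from the sample labels. The log2 ratio was computed after adding 0.01 FPKM, which understates the change of low genes, over genes with at least 0.1 FPKM in 1 library, and called past 0.5, the threshold of the study's methods. With 1 library per group there was no test. The 9 genes and all lists were chosen with earlier results of these data known. Named genes were the 9 genes, partner genes with at least 1 FPKM in 1 library past 0.5, genes that give a list's range, marker genes and the 5 genes most like Dnmt1. Cxxc4, below 1 FPKM, and the partner genes Mbd3, Nnmt, Usp7, Cdca7l, Dmap1, Gadd45a, Gadd45b and Gadd45g were named after their values were seen. Some genes counted in the lists are not reported here by name.

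Depth was estimated from FPKM alone: at low levels a gene's FPKM steps by whole reads, and the depth and a length correction of 117 bases were chosen to bring the most values near whole reads. Within 0.15 reads lay 82.7% of 773 low values in fl/fl and 81.1% of 777 in AD1KO. The median compared gene had about 572 reads over both libraries. Intervals of a log2 ratio are exact Clopper-Pearson at 95%, and those of an FPKM level are exact Poisson at 95%. Pairs and the difference between the 2 families used the conditional odds ratio. Reads carry no molecular identifiers. For a gene at 0 the bound is 3 reads. The steps were tested on simulated data. Near-identical gene copies, which could share reads, were not checked. Gene positions and exons are from GENCODE vM1 on NCBIM37, promoters from RefSeq on GRCm38.p6. The work ran in Python 3.11.15 with pandas 2.3.3, SciPy 1.17.1, NumPy 2.4.6 and Matplotlib 3.10.9. Alternatives were 3 scalings (trimmed mean of M-values, cutting 30% by ratio and 5% by level, upper quartile, median of ratios), pseudocounts of 0.1 and 1 FPKM, no filter, a minimum of 1 FPKM, a threshold of 1 and, added after the data were seen, estimated reads with 0.5 added and the whole counting interval past 0.5.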

Additional observations from a re-analysis of the deposited data

How the results depend on the processing

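Of 266 values under 10 alternatives, 240 stayed within their counting interval (for a list, the median of its genes' bounds) or within 1.5 times their count, and 0 changed direction when each value was taken singly. The log2 ratio ran from -1.07 to -0.88 for Dnmt1, -1.01 to -0.79 for Uhrf1, -0.89 to -0.77 for Dnmt3a, -0.85 to -0.47 for Tet2, -0.50 to -0.37 for Tet3 and -0.15 to -0.06 for Mbd2. With a pseudocount of 1 FPKM, which shrinks low genes by construction, Tet2 had -0.47, 3 of the DNA methylation genes were lower with a median of -0.42, the wider machinery had 6 lower and 1 higher, all compared genes 1661 and 965, the T and NK cell median was -1.34, the B cell median -0.38 and the reproductive tract epithelial median -0.19. With a threshold of 1 the counts were 2 for the DNA methylation genes, 5 and 1 for the wider machinery, and 1417 and 910 for all genes. With the whole counting interval past 0.5, chosen after seeing the data, they were 3, 5 and 1, and 1317 and 665, against 5, 12 and 2, and 3029 and 2265 as reported. The scalings moved all ratios up by 0.04 to 0.09, giving an adipocyte median of 0.60 (trimmed mean of M-values and median of ratios) or 0.65 (upper quartile). With the upper quartile the macrophage median was -0.83, the stromal median 0.13, 4 genes of the wider machinery were higher, and 48.3% of all calls were lower against 57.2%. The balance over all compared genes thus reversed, with 2609 lower and 2795 higher, and their median log2 ratio was 0.05 against -0.04. The neutrophil median was 0.81 with no filter or a minimum of 1 FPKM, since Mpo entered or Cxcr2 dropped out, and the latter left 1281 higher genes in all. No paired analysis was possible because each group is 1 pooled library. Depth limits Dnmt3b and Tet1, whose intervals hold 0.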
